A study of Mus musculus with 24 samples.

Results

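The genes described here are 10 regulators of multiciliated cell fate: Gmnc, Mcidas, Trp73, Myb, Foxj1, Rfx2, Rfx3, Foxn4, Ccno and Deup1. They were chosen by name, and the values of all their transcripts were summed per gene in every library. All 10 were found among the 35855 genes matched, and 8 of them were among the 12211 genes that passed the filter on low counts and were tested. Gmnc and Foxn4 did not pass. RNA abundance was measured by SmartSeq2, a full-length method for small inputs, in 24 bulk libraries of 1000 sorted airway epithelial cells from the trachea of naïve wild-type female mice, C57BL/6 by the series title. No group carried a treatment or a modified allele, and neither the age of the mice nor how many mice stand behind a library is given. The labels give 3 groups of 8 libraries: cells high in BCAM (BCAM HI), cells low in BCAM (BCAM LO) and differentiated cells. BCAM is a laminin-binding surface protein, and the title presents the BCAM groups as subsets of basal cells, the progenitors of the airway epithelium. Each group holds 5 libraries of batch 1 (replicates 1 to 5) and 3 of batch 2 (replicates 6 to 8). What a batch stands for is not given. Nothing in the labels ties a library to its own animal, so p-values measure the spread between these libraries, which may be partly technical.

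Multiciliated cells of the airway carry many motile cilia, each on a basal body made by amplifying centrioles. As background, a progenitor in which Notch signalling is low switches on Gmnc, whose geminin-family protein acts above its relative Mcidas. Both work with E2F4 or E2F5 and DP1 to turn on Myb, Foxj1, Ccno, Deup1 and Trp73, the p53-family gene p73. Foxj1 and the RFX factors then drive the genes of the ciliary axoneme, while Ccno and Deup1 serve centriole amplification. The question asked of the data was where these genes stood in each sorted group and in each batch.

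Library totals ran from 1824620 to 4440070 estimated counts (median 2700870), so a level of 1 CPM (counts scaled to a common library total with TMM factors) rests on a few counts. Summed over 7 basal markers, the level was 4552 to 7284 CPM for BCAM high, 4542 to 5097 for BCAM low and 239 to 2423 for the differentiated libraries. The sums of 7 secretory markers in the differentiated libraries were 290051 to 423951 CPM in batch 1 and 13410 to 89552 in batch 2. The same libraries held 13624 to 115808 CPM of 5 thyroid markers, against at most 1273 for BCAM high and 233 for BCAM low. Neither the secretory nor the thyroid sums of the differentiated libraries overlapped between batches. The thyroid sums were 13624 to 25647 CPM in batch 1 and 48892.5 to 115808 in batch 2. In the same group 5 neuroendocrine markers summed to 362 to 11455 CPM in batch 1 and 18.1 to 193 in batch 2. Its 3 parathyroid markers summed to 189 to 17781 CPM in batch 1 and 0.411 to 238 in batch 2. The BCAM groups held at most 193 CPM of the neuroendocrine and 267 of the parathyroid markers. Fibroblast markers reached 672 CPM in BCAM high and 307 in the differentiated group, and ionocyte, tuft, immune and endothelial markers at most 200, 68.3, 64.2 and 50.5 CPM in any library. The part of other cell types in the results on the differentiated group was not tested, and in bulk RNA fewer cells of a type and less RNA per cell cannot be told apart.

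Foxj1, Mcidas and Deup1 were called higher in the differentiated cells than in either BCAM group over both batches. In the batch 2 libraries of BCAM low, the ranges of all 3 overlapped those of the differentiated group. In batch 1 the ranges of Mcidas and Deup1 overlapped too, through differentiated replicate 5, while those of Foxj1 did not. Rfx2, Rfx3, Myb and Ccno were not called in any of the 3 comparisons. Trp73 was lower in the differentiated cells than in BCAM high. Gmnc and Foxn4 were near the limit of detection. In BCAM low against BCAM high, 1 of the 8 tested regulators was called, Foxj1, which was higher, where 7.02% of all tested genes were called and 4.59% called higher. In differentiated against BCAM high, 4 of 8 were called, 3 higher and Trp73 lower, where 41.3% of all genes were called, 22% higher and 19.4% lower. In differentiated against BCAM low, 3 of 8 were called, all higher, against 33.5% of all genes called and 17.1% called higher. A gene was called at a Benjamini-Hochberg adjusted p under 0.05 in edgeR's quasi-likelihood test over all tested genes. The 3 comparisons share their libraries and are not independent.

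**Figure D1:**
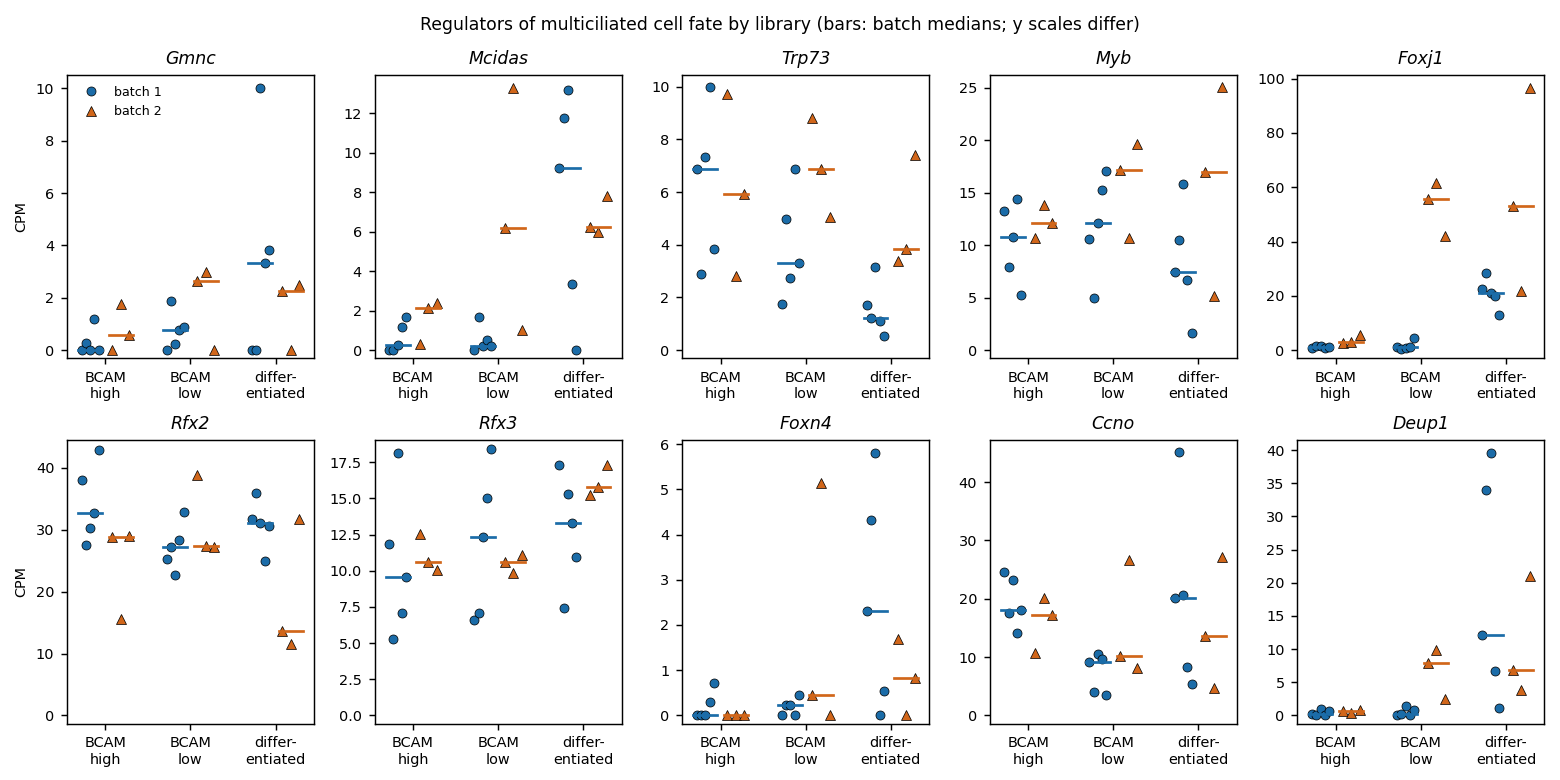
CPM (linear axes, own scale per panel) of the 10 regulators in each of 24 libraries, by group; circles are batch 1, triangles batch 2 and bars the batch medians. Foxj1 in BCAM low reached 41.9 to 61.7 CPM in batch 2 and at most 4.43 in batch 1.

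**Figure D2:**
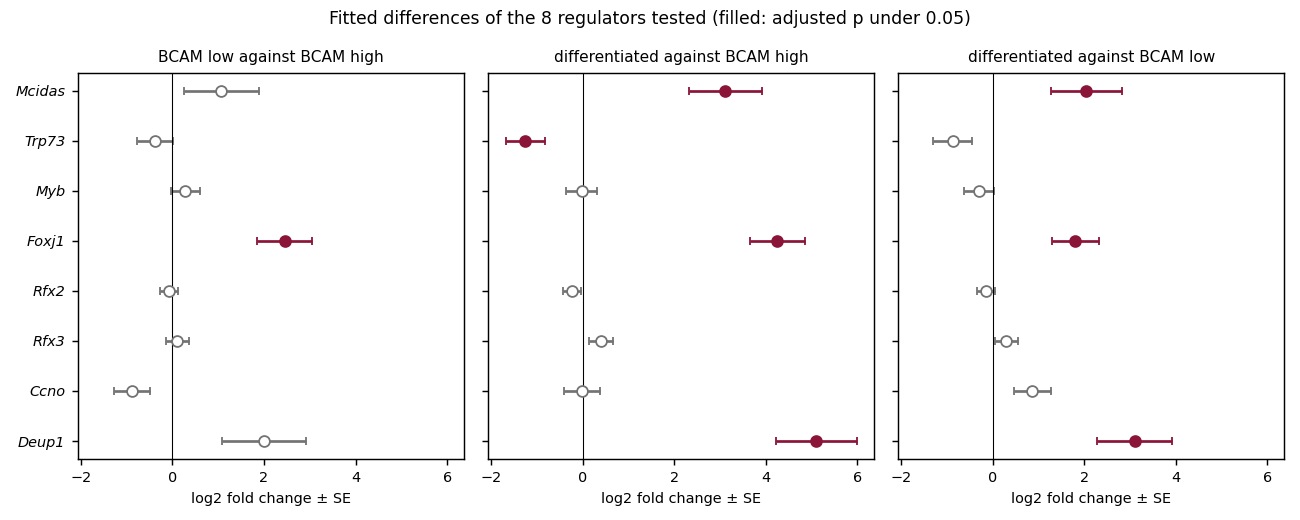
Fitted log2 fold changes with SE (edgeR, batch as covariate) of the 8 regulators tested, in 3 comparisons of 8 against 8 libraries; filled points passed an adjusted p under 0.05. Foxj1, Mcidas and Deup1 lie to the right in both comparisons with the differentiated group.

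Gmnc, the geminin-family gene at the top of the cascade, had 12 counts over all 8 BCAM high libraries, 29 in BCAM low and 42 in the differentiated group. It was at 0 in 4, 2 and 3 libraries of these groups. The highest differentiated library, replicate 3, had 19.3 estimated counts, while replicates 1, 2 and 7 had 0. Fitted without the filter, Gmnc was higher in differentiated than in BCAM high by 2.54 ± 0.95 (log2, SE, adjusted p = 0.049). In that fit 18.4% of 30467 genes were called. Against BCAM low the difference was 1.31 ± 0.90 (adjusted p = 0.34, with 13.5% of genes called). At this depth, Gmnc in the differentiated group rests on 5 libraries.

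Mcidas, the coactivator next in line, lay between 0 and 2.37 CPM in BCAM high (median 0.744). In BCAM low it lay between 0 and 1.66 CPM in batch 1, and was 6.18, 13.3 and 1.01 CPM in the batch 2 libraries. In the differentiated group it ran from 0 to 13.2 CPM (median 7.02). Replicate 5 of that group, at 0, was its only library within the BCAM high range. Mcidas rose 8.68-fold from BCAM high to differentiated (log2 3.12 ± 0.80, adjusted p = 0.0025). Against BCAM low it was 4.13-fold higher (2.05 ± 0.78, adjusted p = 0.043). That second call was lost in batch 2 alone (log2 -0.03, adjusted p = 0.99), with every gene kept whatever its counts (2.05, adjusted p = 0.093), on TPM (1.52, adjusted p = 0.092, limma) and in 10 of the 24 fits with a single library left out. Fitting only the 2 groups compared also lost it (2.09, adjusted p = 0.065, edgeR).

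The partners of these proteins were taken from a list of 6 genes, all tested. Gmnn, which encodes geminin, was 2.47 ± 0.26 higher in differentiated than in BCAM high on the log2 scale (adjusted p = 6.9e-09). E2f5 was 1.87 higher (adjusted p = 0.00018), and Tfdp1, which encodes DP1, was 0.92 lower (adjusted p = 0.0022). Against BCAM high 2 of the 6 were called higher and 2 lower, where 41.3% of all genes were called, and against BCAM low the counts were also 2 and 2, where 33.5% were called. None of the 6 was called in BCAM low against BCAM high by edgeR, where 0 of 6 had an unadjusted p under 0.05. DESeq2 was run on all tested genes, but its values for single genes were kept for the regulators only.

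Trp73 was called lower in the differentiated cells. It lay between 2.83 and 9.99 CPM in BCAM high (median 6.41), between 1.77 and 8.82 in BCAM low (median 5.01) and between 0.546 and 7.41 in the differentiated libraries (median 2.45). The ranges overlapped in every comparison. Trp73 fell by 1.25 ± 0.42 (log2) from BCAM high to differentiated, a 2.38-fold difference with an adjusted p of 0.018. Against BCAM low the difference was -0.88 ± 0.42 (adjusted p = 0.11). Within batch 1 the difference from BCAM high was -1.95 (adjusted p = 0.0099). Within batch 2 it was -0.31 (adjusted p = 0.76). On deposited TPM values, as log2(TPM + 0.1), it was -0.89 (adjusted p = 0.15, limma), where the median tested gene stood at -0.75. On log2(TPM + 1) it was -0.29 (adjusted p = 0.39, limma), where the median tested gene stood at -0.64. The change of that difference between batches was 1.62 ± 0.84 (adjusted p = 0.27).

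Transcripts of Trp73 begin at separate starts, and the groups differed in which start their counts were assigned to, a difference that was not tested. Promoter windows are shown for the internal start and for the furthest upstream start, whose transcript had 0.569 estimated counts in the differentiated group. The p73 forms from the furthest upstream start carry the transactivation domain, and the forms from the internal start (ΔN) lack it. The 4 transcripts with an internal start held 98.9% of the gene's estimated counts in BCAM high (173 of all 8 libraries) and 99.1% in BCAM low (127). They held 64.2% in the differentiated group (30.1 counts). The 2 transcripts that begin 19432 and 43035 bases further upstream had 1 count over the BCAM high libraries, 1 over BCAM low and 13.3 over the differentiated group. All of the 13.3 came from batch 2, with 2.28, 4.81 and 6.19 counts in replicates 6 to 8, or 40.5% of the gene's counts there. The 5 differentiated libraries of batch 1 had 0 upstream counts among 14 counts of the gene. Nearly all upstream counts were assigned to 1 short transcript of 613 bases, which begins 19432 bases upstream of the internal start. Such assignments by kallisto are estimates. Whether the 613-base transcript encodes the transactivation domain was not tested. An antisense gene, Trp73os, overlaps an exon of Trp73 by up to 280 bases. No strand information is stated for these libraries, so its reads could not be told apart in that stretch.

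**Figure D3:**
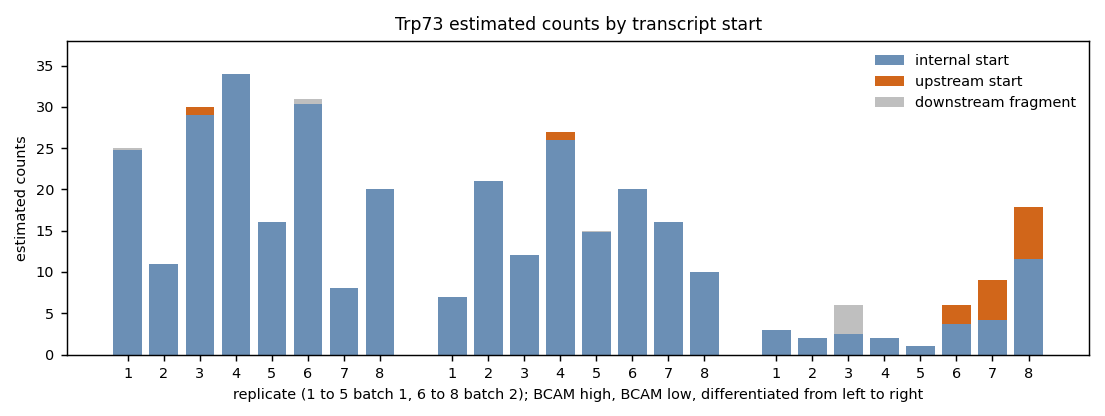
Estimated counts of Trp73 in each library (linear axis from 0), stacked by the start of the transcript (upstream, internal, or a fragment that begins further downstream); the groups stand in the order BCAM high, BCAM low, differentiated, by replicate number. Upstream-start counts of 2.28 to 6.19 appear in the 3 differentiated libraries of batch 2.

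The windows run from 250 bases before to 50 bases after the start (RefSeq, build GRCm38.p6, minus strand). They lie at chr4:154139826-154140125 for the furthest upstream start and chr4:154097124-154097423 for the internal start. The start of the 613-base transcript, which held nearly all upstream counts, is not covered by either window. Capitals mark matches, on either strand, to GTTGCC (RFX core, found in 12.5% of 32851 promoters), TGTTTAC (forkhead, 3.65%), GCGGGAA (E2F, 4.6%) or AACGG (MYB, 17.4%).
Trp73 upstream: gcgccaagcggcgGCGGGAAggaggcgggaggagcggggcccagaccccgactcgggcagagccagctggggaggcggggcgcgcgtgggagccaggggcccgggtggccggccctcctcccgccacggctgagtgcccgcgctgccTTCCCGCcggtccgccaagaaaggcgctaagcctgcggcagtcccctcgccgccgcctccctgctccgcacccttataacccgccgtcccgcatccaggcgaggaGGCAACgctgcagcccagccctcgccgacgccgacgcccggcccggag
Trp73 internal: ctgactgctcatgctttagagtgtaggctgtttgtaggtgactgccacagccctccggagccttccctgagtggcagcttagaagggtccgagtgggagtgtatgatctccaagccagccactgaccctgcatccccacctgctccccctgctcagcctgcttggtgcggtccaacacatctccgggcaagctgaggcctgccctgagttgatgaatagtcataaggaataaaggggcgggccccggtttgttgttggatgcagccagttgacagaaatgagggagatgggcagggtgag
The upstream window held 2 E2F matches and 1 RFX match, and the internal window held no match to these letters. A match is a string of letters in this window and not evidence of binding.

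Myb, the transcription factor that marks early amplifying cells, did not pass the test in any comparison. Its CPM ran from 5.28 to 14.4 for BCAM high, from 4.97 to 19.7 for BCAM low and from 1.64 to 25.1 for the differentiated group. Its fitted differences were 0.28 ± 0.32 for BCAM low and -0.02 ± 0.33 for differentiated against BCAM high. The spread among differentiated libraries was the widest of the 3 groups. On TPM, where the median tested gene itself stood 0.75 lower (log2) in differentiated than in BCAM high, Myb was called lower (-1.22, adjusted p = 0.014, limma), as were 55.9% of all genes. A predicted antisense gene, Gm26577, overlaps an exon of Myb by 268 bases.

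Foxj1, the forkhead factor that commands the motile cilium programme, had the smallest adjusted p of the 8 regulators against BCAM high. In BCAM high it lay between 0.826 and 5.63 CPM (median 1.52, total 58 counts). In the differentiated group it lay between 13.1 and 96.7 CPM (median 22.1, total 565 counts). All 8 differentiated libraries lay above all 8 BCAM high libraries. Foxj1 rose 19.1-fold (log2 4.26 ± 0.59, adjusted p = 3.5e-06). The difference was 4.09 within batch 1 and 3.95 within batch 2.

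BCAM low held 2 levels of Foxj1, split by batch. The batch 1 libraries had 1.26, 0.473, 0.915, 1.27 and 4.43 CPM, within or below the BCAM high range. The batch 2 libraries had 55.6, 61.7 and 41.9 CPM, within the differentiated range. The fit over both batches gave a 5.46-fold rise from BCAM high (2.45 ± 0.60, adjusted p = 0.014) and a 3.50-fold difference between differentiated and BCAM low (1.81 ± 0.51, adjusted p = 0.0083). With limma the rise in BCAM low was 1.35 on log2(TPM + 0.1), which was not called (adjusted p = 0.10), and 1.16 on log2(TPM + 1), which was (adjusted p = 0.049). BCAM low exceeded BCAM high by 0.48 in batch 1 (adjusted p = 0.64) and by 3.83 in batch 2 (adjusted p = 0.0033). Differentiated exceeded BCAM low by 3.61 in batch 1 (adjusted p = 1.1e-06) and by 0.11 in batch 2 (adjusted p = 0.91).

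The change between batches was tested directly, in a fit that gives each group its own mean within a batch. For BCAM low against BCAM high, Foxj1 changed by 3.35 ± 0.76 (adjusted p = 0.022), the only regulator called of 8, where 1.06% of all genes were called. That call was lost, at an adjusted p of up to 0.0711, without each of BCAM high replicates 2, 3, 6 and 7 and BCAM low replicates 6 and 7. For differentiated against BCAM low, Foxj1 changed by -3.49 ± 0.60 (adjusted p = 0.0002) and Deup1 by -4.44 ± 1.25 (adjusted p = 0.019), 2 of 8 against a background of 11.4%. The Deup1 call was lost without BCAM low replicate 7 or differentiated replicate 6 or 7, with values of -4.04 to -4.21. For differentiated against BCAM high, 0 of 8 regulators were called by edgeR, with 0 of 8 at an unadjusted p under 0.05 under either TMM or DESeq2 size factors. The background was 8.69%.

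Batch 2 against batch 1 within BCAM low was called for Foxj1 (30.5-fold, adjusted p = 1.1e-08), Deup1 (12.3-fold, adjusted p = 0.010) and Mcidas (12.2-fold, adjusted p = 0.012), 3 of 8 regulators, all higher, against 11.1% of all genes called and 6.48% called higher. Without BCAM low replicate 7, Deup1 (3.26 on the log2 scale, adjusted p = 0.061) and Mcidas (2.70, adjusted p = 0.15) were no longer called. Within BCAM high, edgeR called 0 of 8 against 8.04%, with 1 of 8, Foxj1, at an unadjusted p under 0.05 under both scalings. Within the differentiated group Foxj1 was called (2.73-fold, adjusted p = 0.0068), 1 of 8 against 20.1%. That call was lost without replicate 8 (0.82 on the log2 scale, adjusted p = 0.15).

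Levels of motile cilium genes were set beside those of Foxj1. The summed level of the 26 listed cilium genes other than Tubb4b, a tubulin gene at 346 to 897 CPM in every library, was 35 to 49.4 CPM in batch 1 of BCAM high and 25.7 to 33.2 in batch 2. Foxj1 stood the other way there, at 0.826 to 1.58 CPM in batch 1 and 2.51 to 5.63 in batch 2. In batch 1 of BCAM low the sum was 39.7 to 58.9 CPM. It was 914, 645 and 469 CPM in the batch 2 libraries of BCAM low and 336 to 1598 in the differentiated libraries. The library with the highest Foxj1, differentiated replicate 8, also had the highest sum. Secretory markers summed to 63707 to 75056 CPM in BCAM low of batch 2 and 34446 to 55721 in batch 1, and basal markers to 5051 to 5097 and 4542 to 4866. Thyroid markers there summed to 5.55 to 233 CPM in batch 2 and 2.22 to 9.43 in batch 1. Neuroendocrine markers reached 193 CPM in batch 2 (median 0.504) and 7.09 in batch 1, and parathyroid markers 267 (median 0.882) and 2.27. Tuft and immune sums were lower in batch 2, at 1.01 to 4.41 and 18.4 to 32.2 CPM, against 10.6 to 68.3 and 41.1 to 64.2. How far the cell content of the batch 2 BCAM low libraries bears on Foxj1, Deup1 and Mcidas was not tested.

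**Figure D4:**
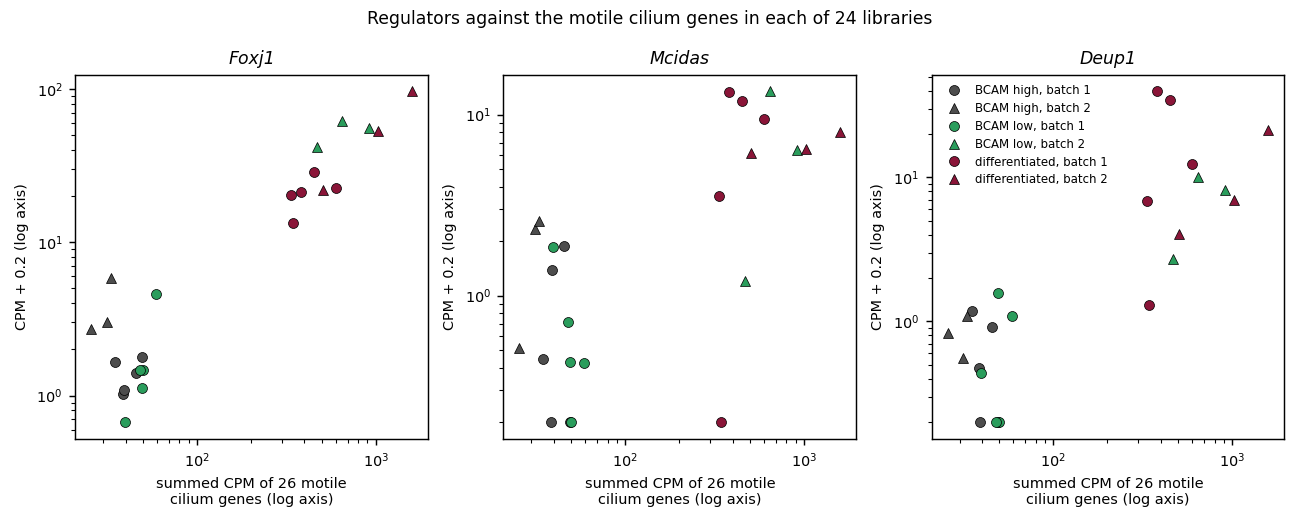
CPM + 0.2 of Foxj1, Mcidas and Deup1 against the summed CPM of 26 motile cilium genes without Tubb4b (both log axes), a point per library, coloured by group and shaped by batch. For Foxj1 and Deup1, the 3 BCAM low libraries of batch 2 lie with the differentiated libraries, and the 5 of batch 1 lie near BCAM high. For Mcidas, BCAM low replicate 8 of batch 2, at 1.01 CPM, lies within the BCAM high range of Mcidas.

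Rfx2 and Rfx3 encode winged-helix factors that bind promoters of ciliary genes. Rfx2 lay between 15.6 and 42.9 CPM in BCAM high (median 29.7), 22.6 and 38.8 in BCAM low (27.3) and 11.5 and 35.9 in the differentiated group (30.8). Its differences were within 0.23 on the log2 scale and were not called. On TPM, Rfx2 was called lower in differentiated than in BCAM high (-0.91, adjusted p = 0.00074, limma). So were 55.9% of all genes on that scale, where the median tested gene stood at -0.75. The CPM of Rfx3 ran from 5.25 to 18.1 for BCAM high, from 6.57 to 18.4 for BCAM low and from 7.43 to 17.3 for the differentiated group. Its fitted differences were 0.10 ± 0.25, 0.40 ± 0.25 and 0.30 ± 0.25, none of them called. In batch 2, Rfx3 ran from 15.3 to 17.3 CPM in the differentiated libraries and from 9.86 to 12.5 in the other 6. In the edgeR fit of batch 2 alone it was not called against BCAM high (0.56, adjusted p = 0.25) or BCAM low (0.63, adjusted p = 0.26). On TPM the batch 2 ranges overlapped, at 3.54 to 5.55 for differentiated and 2.35 to 7.61 for BCAM high.

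Foxn4, a forkhead gene of the amplification step in other species, had 4 counts over the BCAM high libraries, 17 over BCAM low and 28 over the differentiated group. BCAM low replicate 7 held 12 of the 17. Fitted without the filter, Foxn4 was 3.40 ± 1.10 higher in differentiated than in BCAM high (log2, adjusted p = 0.018). It was not called against BCAM low (1.35 ± 1.17, adjusted p = 0.47).

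Deup1 builds the deuterosome, the body on which new centrioles form. It lay between 0 and 0.979 CPM in BCAM high (14 counts in all), and between 1.09 and 39.6 CPM in the differentiated group (237 counts). No differentiated library overlapped BCAM high. Deup1 rose 34.4-fold (5.10 ± 0.88, adjusted p = 4.1e-05). In BCAM low it lay between 0 and 1.37 CPM in batch 1 and was 7.94, 9.86 and 2.52 CPM in batch 2. Against BCAM high the BCAM low difference was 2.00 ± 0.92 over both batches (adjusted p = 0.21) and 3.33 within batch 2 (adjusted p = 0.043). Differentiated exceeded BCAM low 8.57-fold (3.10 ± 0.82, adjusted p = 0.0046), by 5.08 in batch 1 and 0.64 in batch 2 on the log2 scale, the latter with an adjusted p of 0.61.

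Deup1 and Mcidas were called in the same comparisons between groups, and their promoter windows are shown for that reason, with capitals as above (RefSeq, GRCm38.p6). Deup1 lies at chr9:15627797-15628096 on the minus strand, and Mcidas at chr13:112993618-112993917 on the plus strand.
Deup1: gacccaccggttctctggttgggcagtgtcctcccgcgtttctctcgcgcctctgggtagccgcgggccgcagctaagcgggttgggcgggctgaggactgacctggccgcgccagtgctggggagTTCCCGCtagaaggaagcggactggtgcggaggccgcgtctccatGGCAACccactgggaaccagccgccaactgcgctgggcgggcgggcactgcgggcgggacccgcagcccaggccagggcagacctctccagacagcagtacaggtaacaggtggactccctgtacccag
Mcidas: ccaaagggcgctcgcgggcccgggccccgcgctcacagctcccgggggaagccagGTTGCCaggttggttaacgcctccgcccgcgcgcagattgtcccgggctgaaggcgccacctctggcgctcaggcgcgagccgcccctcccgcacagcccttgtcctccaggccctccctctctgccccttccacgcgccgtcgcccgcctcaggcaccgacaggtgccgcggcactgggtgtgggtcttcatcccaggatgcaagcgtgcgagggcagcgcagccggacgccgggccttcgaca
The Deup1 window held 1 E2F and 1 RFX match, the latter at position -79 from the start, and the Mcidas window held 1 RFX match. A further Deup1 window, for another start, held none. Of the 10 regulators 9 had a window in the table, and RFX matches stood in those of Ccno, Deup1, Mcidas, Rfx2, Rfx3 and Trp73. In Rfx2 and Rfx3 a MYB match overlaps the RFX match.

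Ccno encodes an atypical cyclin required for centriole amplification and lies 3067 bases upstream of Mcidas on chromosome 13. Ccno lay at 10.7 to 24.5 CPM in BCAM high (median 17.8) and at 4.69 to 45.2 CPM in the differentiated libraries (median 16.9). The fitted difference was -0.01 ± 0.39. On TPM, Ccno was called lower (-1.02, adjusted p = 0.045, limma), as were 55.9% of all genes, and the median tested gene stood at -0.75. In BCAM low it lay between 3.55 and 26.6 CPM (median 9.39). In batch 1 it ran from 3.55 to 10.5 CPM in the 5 BCAM low libraries and from 14.1 to 24.5 in the 5 BCAM high libraries. In edgeR fits of each batch alone, BCAM low against BCAM high was not called. The difference was -1.40 in batch 1 (adjusted p = 0.062) and -0.08 in batch 2 (adjusted p = 0.97). Over both batches the difference was -0.88 ± 0.40 and was not called (adjusted p = 0.20). It was called without BCAM low replicate 7, at 26.6 CPM (-1.23, adjusted p = 0.048). A fit of only these 2 groups also called it (-0.91, adjusted p = 0.043, edgeR). Differentiated against BCAM low was not called over both batches. In batch 1 alone it was called higher (1.42, adjusted p = 0.018, edgeR), and in batch 2 alone it was not (0.02, adjusted p = 0.99). Cdc20b, 34716 bases beyond Mcidas and also a centriole amplification gene, had 2 counts over the BCAM high libraries, 1 over BCAM low and 23 over the differentiated group, and was not tested.

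Per transcript length, as median TPM over both batches, the order of the regulators differed between groups. In BCAM high the order began with Ccno (12.2 TPM) and Rfx2 (11), then Myb (4.64), Rfx3 (3.90) and Trp73 (1.88), with Foxj1, Mcidas and Deup1 below 1. In the differentiated group Ccno (6.17), Rfx2 (6.11), Foxj1 (5.86) and Deup1 (5.79) stood within their ranges of each other, ahead of Rfx3 (2.54), Mcidas (2.47), Myb (1.68) and Trp73 (1.08). In batch 2 of that group the order was Foxj1 (13.3), Rfx3 (5.33), Ccno (4.82), Rfx2 (4.30) and Trp73 (4.12), with Deup1 at place 8 (1.73). In BCAM low Rfx2 led (9.52), followed by Ccno (4.80) and Myb (3.98), but Foxj1 stood first in batch 2 (19.4) and at place 6 in batch 1 (0.483). No order was tested.

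Lists of related genes were read beside the regulators. Of 26 tested motile cilium genes, 26 were called higher in differentiated than in BCAM high (median log2 4.50, all tested genes -0.02), 22 against BCAM low (median 1.93) and 10 in BCAM low against BCAM high (median 2.42). Of all genes, 22%, 17.1% and 4.59% were called higher in these comparisons. On log2(TPM + 0.1), with limma, the counts of cilium genes were 25, 12 and 3. Of all 12211 genes, 886, 623 and 194 were called higher on that scale. Ccdc40, which sets the axonemal ruler, rose by 5.24 from BCAM high to differentiated, and Dnah9, an outer dynein arm heavy chain, by 3.85. In BCAM low against BCAM high, 16 of the 26 were called for a change between batches, where 1.06% of all genes were. Each of the 16 changed toward a larger difference in batch 2. Of 16 tested centriole amplification genes, 3 were called higher in each comparison with the differentiated group, among them Cetn2, a centrin (0.75 ± 0.18 against BCAM high). That count is near or below the share of all genes, of which 22% were called higher against BCAM high and 17.1% against BCAM low. On log2(TPM + 0.1), 1 of the 16 was higher and 4 were lower against BCAM high, where 55.9% of all genes were called lower. edgeR called 0 of 16 in BCAM low against BCAM high, where 2 had an unadjusted p under 0.05. Intraflagellar transport genes, used by all cilia, were called higher for 5 of 16 in differentiated against BCAM high, with Ift88 at 1.15. The counts were 2 of 16 against BCAM low and 1 of 16 in BCAM low against BCAM high. Of all genes, 22%, 17.1% and 4.59% were called higher in these 3 comparisons. On log2(TPM + 0.1), 0 of the 16 were higher and 3 lower in differentiated against BCAM high, where 55.9% of all genes were called lower.

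In the remaining lists, counts against BCAM high stand beside 22% of all genes called higher and 19.4% lower. Of 9 tested Notch pathway genes, 4 were lower and 2 higher in differentiated than in BCAM high. Jag2, a Notch ligand, fell by 6.39 and Dll1, another, by 3.33 on the log2 scale. In BCAM low against BCAM high, 2 of the 9 were called, where 7.02% of all genes were. Notch3 was higher there (1.62, adjusted p = 0.0018, edgeR) and 1 gene was lower. With limma on log2(TPM + 0.1) and log2(TPM + 1), 0 of the 9 were called higher in that comparison, and 0 and 2 lower. Of all 12211 genes, 194 and 223 were called higher and 611 and 812 lower on these scales. Of 10 tested paralogues of the regulators, 6 were lower and 0 higher in differentiated than in BCAM high. Trp63, the basal cell relative of Trp73, fell by 5.66 and Foxn3 by 1.54. Of 11 cell cycle genes, 10 were lower in differentiated than in BCAM high. In BCAM low 3 were lower than in BCAM high, where 7.02% of all genes were called, among them Ccnb1 (-1.99).

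**Figure D5:**
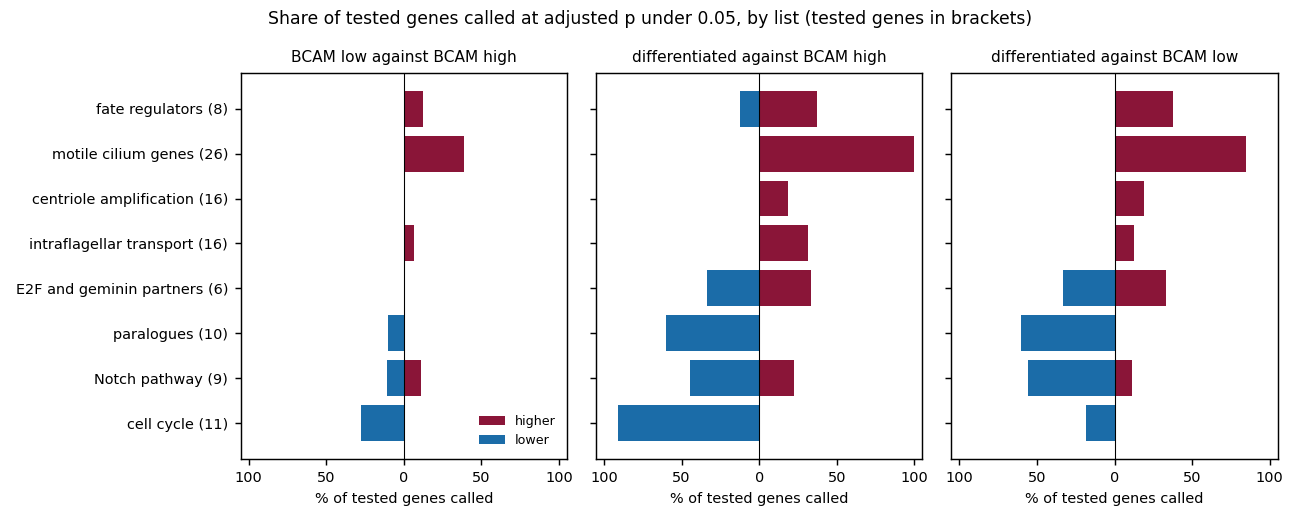
Share of tested genes called higher (right) or lower (left) at an adjusted p under 0.05 in 3 comparisons, for the regulators and 7 lists; numbers in brackets are tested genes. Motile cilium genes reach 26 of 26 called higher in differentiated against BCAM high.

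The genes nearest to each regulator in pattern were found as those with the smallest root mean square difference of centred log2 CPM over 24 libraries, among 12211 genes. For Foxj1 they were Tctex1d4 (0.56), Tmem213 (0.61) and Gm281 (0.61), where the median gene stood at 2.16. For Mcidas they were Kif26b (0.88), Deup1 (0.94) and Dusp18 (0.98). For Deup1 they were Meig1 (0.77), Ccdc151 (0.78) and Crocc2 (0.88), with Mcidas at place 7. Trp73 was nearest to Rai14 (0.56), and Myb to Srsf9 (0.45). For Foxj1 the nearest other regulator, Deup1, stood at place 126.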

How the data were processed

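The 24 deposited transcript tables hold, per the file headers, an estimated count and a TPM value for every transcript. Per the submitters' processing notes, kallisto (version listed as 46.1), Picard and build GRCm39 were used. The sources used here do not name the index or annotation. The authors left the estimated counts unnormalized, and TPM as deposited accounts for transcript length and library total. Transcript identifiers were matched without version to GENCODE M21 (GRCm38): 116374 of 117497 matched, and all 44 transcripts of the regulators had equal length in both. Locations printed are those of GRCm38, and no coordinate was converted.

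Counts were summed per gene, rounded, and tested with edgeR 4.0.16 (quasi-likelihood, robust, TMM factors, default filter on low counts) in R 4.3.3, over 24 libraries with batch as covariate. Changes between batches were tested in a second fit, where every group had its own mean within each batch. The SE printed beside a fitted log2 fold change is the absolute change over the square root of F. Alternatives were DESeq2 1.42.0 (size factors, Wald test), no filter, limma 3.58.1 on log2(TPM + 0.1) and log2(TPM + 1), the replicate number as a block, each batch alone, only the groups compared, each library left out, and, added after seeing the data, BCAM low of batch 1 only. On simulated counts the test recovered 56% of genes changed by 1 and 93% changed by 2 (log2) in BCAM low against BCAM high, and 60% changed by 2 in the test between batches (12211 genes each).

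Named were all 10 regulators, up to 3 called genes of each list and comparison with the smallest adjusted p, the 3 genes nearest in pattern, and the genes next to Mcidas and Ccno. Tubb4b was named after its values were seen. The regulators and the 17 other lists were chosen with earlier results of these data known. Totals limit precision: 1824620 to 4440070 estimated counts per library, without molecular identifiers.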

Additional observations from a re-analysis of the deposited data

Results flagged for a closer look

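Whether a comparison differed between batches was tested directly with edgeR. Foxj1 in BCAM low against BCAM high changed by 3.35 (log2) from batch 1 to batch 2, and in differentiated against BCAM low by -3.49. Deup1 in differentiated against BCAM low changed by -4.44. In each case the 3 batch 2 libraries of BCAM low stood with the differentiated libraries, and their summed level of 26 motile cilium genes was 469 to 914 CPM against 39.7 to 58.9 in batch 1. The batch and what else differed between these libraries cannot be told apart.

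Dixon's test compares the gap between the lowest or highest library and its neighbour with the whole range of the 8 libraries of a group, here on the log2 scale, and chance alone marks about 1 in 20 groups. Of 24 sets tested, 3 had a library past the critical value. The gap is given as a share of the range. Mcidas in differentiated replicate 5 was the lowest, at 0 counts (gap 0.59). Rfx2 in BCAM high replicate 7 was the lowest, at 15.6 CPM (gap 0.561). Myb in BCAM low replicate 2 was the lowest, at 4.97 CPM (gap 0.541).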

How the results depend on the processing

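Of 336 values for single regulators under other settings, 286 kept their direction and their side of the threshold, 14 lost a call, 15 gained one and 21 changed sign. With each library left out, 1652 of 1728 kept both, 22 lost a call, 13 gained one and 41 changed sign. Of the 62 changes of sign, 1 was of a called value, Mcidas in differentiated against BCAM low (-0.034 in batch 2 alone). Where a value below moved, the cause was not tested.

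The number of regulators called in BCAM low against BCAM high, 1, was 0 on log2(TPM + 0.1), in batch 1 alone and with BCAM low of batch 1 only (chosen after seeing the data), and 2 in batch 2 alone or with only the groups compared. In differentiated against BCAM high it was 2 in batch 2 alone instead of 4, and against BCAM low 0 instead of 3. Batch 2 against batch 1 within BCAM high called 1 without the filter on low counts instead of 0. Over all genes, 5044 calls in differentiated against BCAM high (2681 higher, 2363 lower) became 7709 on log2(TPM + 0.1) (886 higher, 6823 lower) and 7741 on log2(TPM + 1). Against BCAM low 4086 calls (2090 higher, 1996 lower) became 2067 in batch 2 alone, and the split on log2(TPM + 0.1) was 623 to 4316. In BCAM low against BCAM high 857 calls (560 higher, 297 lower) became 465 in batch 2 alone, 1365 with only the groups compared and 356 with BCAM low of batch 1 only, and the split on log2(TPM + 0.1) was 194 to 611. On that scale the median of all genes shifted by -0.75, -0.48 and -0.26 in these 3 comparisons.

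Uncalled values changed sign as follows. Ccno in differentiated against BCAM high was 0.0020 with DESeq2 size factors, 0.0094 with DESeq2's Wald test, 0.021 in batch 1 alone and 0.0072 with only the groups compared. On log2(TPM + 0.1) and log2(TPM + 1), Myb in BCAM low against BCAM high was -0.060 and -0.049, Rfx3 there -0.45 and -0.33, and Rfx3 in differentiated against BCAM high -0.38 and -0.25. Batch 1 alone gave -0.24 for Mcidas in BCAM low against BCAM high and 0.18 for Rfx2 in differentiated against BCAM low. BCAM low of batch 1 only gave -0.63 and 0.14 for these, and -0.080 for Deup1 in BCAM low against BCAM high. Batch 2 alone gave 0.35, 0.17 and -0.070 for Rfx2, Trp73 and Rfx3 in BCAM low against BCAM high and 0.38 for Myb in differentiated against BCAM high. Without the filter, Trp73 in batch 2 against batch 1 of BCAM high was -0.043.

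With each library left out, the number of regulators called was 1 to 2 in BCAM low against BCAM high, 4 to 4 in differentiated against BCAM high and 2 to 4 against BCAM low. It was 0 to 1, 0 to 0 and 1 to 3 for the changes of these between batches (BCAM low against BCAM high, differentiated against BCAM high, differentiated against BCAM low), and 0 to 1, 1 to 3 and 1 to 2 for batch 2 against batch 1 within BCAM high, BCAM low and the differentiated group. All-gene calls ran from 683 to 982, 4699 to 5156 and 3708 to 4137. Signs changed, for differentiated against BCAM high, in Myb (-0.24 to 0.15) and Ccno (-0.39 to 0.14), and in Rfx3 in BCAM low against BCAM high (-0.043 to 0.29). Between batches they changed within BCAM high for Trp73 (-0.49 to 0.33) and Rfx3 (-0.088 to 0.39), within BCAM low for Rfx3 (-0.34 to 0.034), and within the differentiated group for Ccno (-1.15 to 0.16) and Mcidas (-0.49 to 0.15). They also changed in the change of differentiated against BCAM high for Ccno (-0.86 to 0.44), Foxj1 (-0.76 to 0.32), Rfx2 (-0.82 to 0.060) and Rfx3 (-0.077 to 0.42), and in that of BCAM low against BCAM high (-0.046 to 0.37) and differentiated against BCAM low (-0.039 to 0.93) for Myb. Ccno in differentiated against BCAM low was called without BCAM low replicate 7 (1.22) or differentiated replicate 7 (1.05), and Trp73 there without differentiated replicate 8 (-1.16).

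With the replicate number as a block, Mcidas in differentiated against BCAM low was no longer called (2.20, adjusted p = 0.068, edgeR), and the other calls of regulators between groups remained. Same-numbered libraries correlated in their deviations by 0.0315 to 0.176 in 24 pairs, 7 of them over 0.1, against -0.144 to 0.0743 in 78 others, and 23 of 24 libraries correlated best with their own number. The labels give no shared animal or day for a number. Depth limits Gmnc and Foxn4, with at most 42 counts per group of 8 libraries.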
